A study of Mus musculus with 3 samples.

Results

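The lung of FVB mice after a urethane injection was compared with the lung of FVB mice after a saline injection, on 1 whole-transcript array each. These are 2 of the 3 arrays of the series, chosen by their titles alone; the third array, of cultured FULA 1 lung adenocarcinoma cells, entered only the scaling. The saline lung carries the strain FVB, the treatment saline and the tissue lung in its labels. The urethane lung carries the strain FVB, the treatment urethane and the tissue lung, and was taken 1 week after an intraperitoneal injection. The sources used here do not give age, sex, dose, the number of mice behind each array or the time between the saline injection and the collection of that lung. Each group is therefore 1 array of whole lung, no spread between animals was measured, and no test, p-value or standard error is given. Each value below sets these arrays side by side, not the treatments. In whole lung, fewer cells of a type and less RNA per cell cannot be told apart.

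Urethane (ethyl carbamate) is a carcinogen that gives lung adenomas in mice. Cytochrome P450 enzymes, chiefly CYP2E1, oxidize it to vinyl carbamate and then to an epoxide that binds bases of DNA, and esterases also break it down. Adducts of this kind are known substrates of base excision repair, and tumours that follow in mouse lung often carry activated Ras genes and resemble alveolar type II or club cells. The comparison asks how RNA levels of the gene families of the lung stood 1 week after the carcinogen.

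Values for 41345 probe sets gave 22180 named genes, 1082 of them read by several probe sets. The deposited log2 values were not on one scale, with medians of 0.08 (saline lung) and 1.22 (urethane lung), so both arrays were brought to the same quantiles; a level below is a quantile-normalized log2 value, and a difference is the urethane level minus the saline level. A background mark was taken from the olfactory receptors, genes mostly silent in lung: the 95th percentile of 1089 of them, at a level of 2.44 on the saline lung against 2.42 on the urethane lung. Above it lay 11111 genes on the saline lung, 10933 on the urethane lung and 9894 on both, which left 12150 genes above it on at least 1 lung. Where a level lay below the mark it was held at the mark, and the difference is then a bound, given as "at least" or "or lower". A gene above the mark on 1 lung only, as 2256 were, has the direction of its difference fixed by that mark. Many deposited values were shared: of the 12150 genes, 21.3% (saline lung) and 27.4% (urethane lung) stood at a value held by 10 or more probe sets, and 36 genes had the same deposited value on both lungs. Such genes have coarse differences, and for the families farthest from the other genes the members with values of their own are counted.

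The levels of most genes differed little between the lungs. Over the 12150 genes the median difference was -0.06, the 25th percentile -0.30 and the 75th percentile 0.21, and the central 95% ran from -0.79 to 0.96. Of these genes 261 (2.15%) were at least 2-fold higher on the urethane lung and 97 (0.798%) at least 2-fold lower. The split turned with the scaling: it was 148 against 45 with the quantiles of the 2 lungs alone, 204 against 30 after subtraction of a lowess curve, and 170 against 199 with both arrays shifted to a common median. All 4 scalings put 126 genes (1.04%) past 2-fold on the higher side and 30 (0.247%) on the lower side. They included olfactory receptors, the class taken as background: Olfr978, Olfr310 and Olfr1411 were higher and Olfr1039 was lower. With no floor and no values held, 41 of the 1089 receptors were past 2-fold. For all 22180 genes the counts were then 490 higher and 217 lower. The share past 2-fold was thus no lower among the receptors than among all genes. A difference above 0 was found for 5388 genes (44.3%) and one below 0 for 55.6%. The same sign of difference under all 4 scalings was found for 10249 genes (84.4%). Across genes, which are not independent replicates and share both arrays, the Spearman correlation of the levels was 0.883 over these 12150 genes. Of the 358 genes past 2-fold, 352 rested on 1 probe set. Of 330 genes read by exactly a pair of probe sets and past the mark, the signs matched in 177 (53.6%). The median gap between the differences of a pair was 0.36. The signs of a pair thus matched little more often than not, so a direction read by 1 probe set is uncertain.

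**Figure D1:**
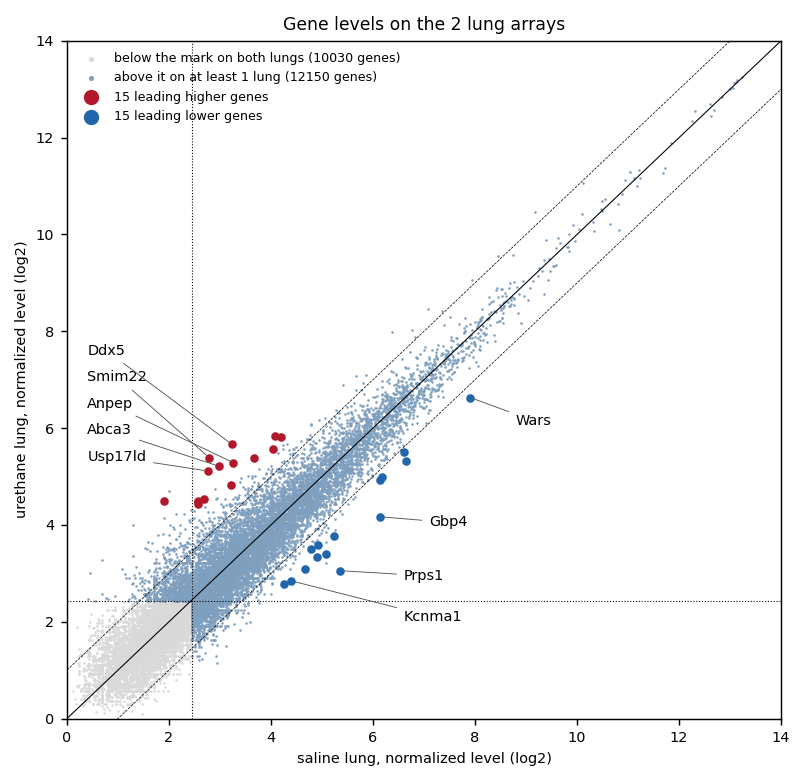
Each point is 1 of 22180 genes, with its normalized log2 level on the saline lung on the x axis and its urethane level on the y axis; dotted lines are the background marks (2.44 and 2.42), the solid line is equality and dashed lines are 2-fold differences. Most of the 12150 genes above a mark lie between the dashed lines, and the 15 leading genes in each direction, in red and blue, lie outside them.

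The genes that stood farthest above their saline level on the urethane lung came from unrelated families. They were ranked by the difference nearest to 0 over the 4 scalings, so that no gene leads through 1 scaling. Smim22, which encodes a small integral membrane protein, had a level of 2.79 on the saline lung against 5.39 on the urethane lung, a difference of 2.61. Ddx5, a DEAD-box RNA helicase that takes part in splicing and in transcription, had levels of 3.23 and 5.67, a difference of 2.44. Usp17ld, a deubiquitinase of a family of near-identical genes, had levels of 2.75 and 5.11, a difference of 2.36 that is uncertain for that reason. Abca3, the transporter that loads surfactant lipids into lamellar bodies, had levels of 2.98 and 5.21, a difference of 2.23. Anpep, the membrane alanyl aminopeptidase found on myeloid and epithelial cells, had levels of 3.26 and 5.28, a difference of 2.02. All 5 were about 4-fold or more apart, with a fold from 4.06 for Anpep to 6.09 for Smim22.

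The next genes differed by less. Cpq, a secreted peptidase, lay below the mark on the saline lung and at a level of 4.49 on the urethane lung, a difference of at least 2.05. The remaining leading genes were Atrnl1 (a difference of 1.92), Megf6 (1.90), Trim26 (1.87), Sfn (1.85), Firre (1.76), Tcf3 (1.73), Cd300ld3 (1.62), Prdm1 (1.61) and Tnpo2 (1.52). Among them Sfn encodes 14-3-3 sigma, a p53-induced brake on the cell cycle in epithelia, Firre is a long noncoding RNA of nuclear architecture, and Prdm1 encodes BLIMP1, a repressor known from plasma cells. Tcf3 encodes the E2A transcription factors, and Tnpo2 a nuclear import receptor. All 15 rested on 1 probe set. The saline levels of Atrnl1, Megf6 and Trim26 (2.56 each) and of Sfn (2.69) lay close to the mark of 2.44 on that lung. On the urethane lung Smim22 and Tcf3 stood at the same value, shared by 58 probe sets, Ddx5 at one shared by 38 and Trim26 at one shared by 153, whereas the other 11 had values of their own. Outside the leading 15, Neat1, the long noncoding RNA of nuclear paraspeckles, was named after its values were seen: its level was 6.37 on the saline lung against 7.99 on the urethane lung, a difference of 1.61.

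The genes that stood farthest below their saline level on the urethane lung included several of the immune system. Prps1, which makes phosphoribosyl pyrophosphate for nucleotide synthesis, had a level of 5.36 on the saline lung against 3.05 on the urethane lung, a difference of -2.31. Gbp4, an interferon-induced guanylate-binding protein, had levels of 6.14 and 4.17, a difference of -1.98. Kcnma1, the BK potassium channel of smooth muscle, had levels of 4.40 and 2.84, a difference of -1.56. Prps1 and Gbp4 had values of their own on both lungs, while the urethane value of 1 of the Kcnma1 probe sets was shared by 1089 probe sets. Rac2, a small GTPase of blood cells, had levels of 6.64 and 5.31, a difference of -1.32. Wars, the tryptophanyl-tRNA synthetase, which interferon gamma is known to induce, had levels of 7.90 and 6.63, a difference of -1.27. Mt2, a metallothionein that binds zinc and copper, had levels of 6.18 and 4.99, a difference of -1.19.

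The others of the 15 lowest were Ly6a2 (a difference of -1.68), Chst13 (-1.58), Prr7 (-1.57), Aldh3b2 (-1.47), Ppp1cc (-1.47), Myl7 (-1.34), Fgf22 (-1.28), Nacc1 (-1.22) and Msl3 (-1.11). Myl7 encodes the atrial myosin light chain, Ppp1cc a catalytic subunit of protein phosphatase 1, and Msl3 a subunit of a histone acetyltransferase complex. In all, 14 of the 15 rested on 1 probe set and 7 stood at a value shared by 10 or more probe sets on a lung. Ly6a2 belongs to a family of near-identical genes and is uncertain. None of the 15 lay below the mark on the urethane lung.

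**Figure D2:**
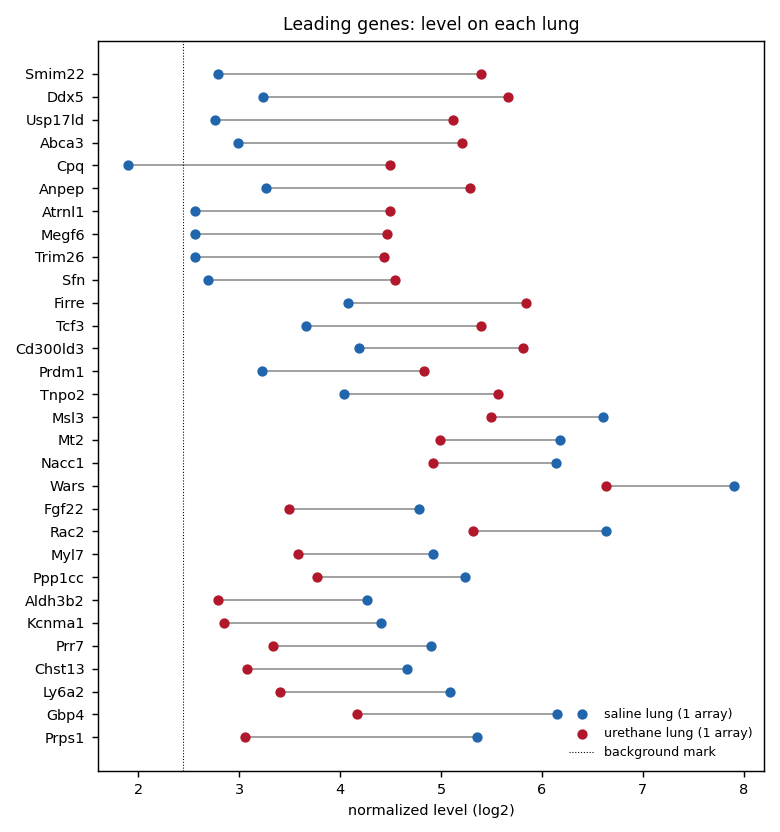
Normalized log2 level (x axis) of the 15 leading higher and 15 leading lower genes on the saline lung (blue points) and the urethane lung (red points), 1 array each, joined by a line; the dotted line is the background mark. Only Cpq has a saline level below the mark, and the longest lines are those of Smim22 (2.79 and 5.39) and Cpq.

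Gene families were then set against the 12150 genes as a whole. Of 108 families and marker lists, 95 had at least 5 members above the mark on a lung. The median difference was above 0 in 32 and below 0 in 63, and in 81 it lay within 0.25 of the median of all genes. The sign of the median turned under another scaling in 27 of the 95. The families farthest from the median of all genes, among those with 10 or more members past the mark, were cardiac muscle genes and interferon-induced GTPases on the low side, and alveolar type II markers, axonemal dyneins and integrin chains on the high side, of which the alveolar type II median turned below 0 with a common median.

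**Figure D3:**
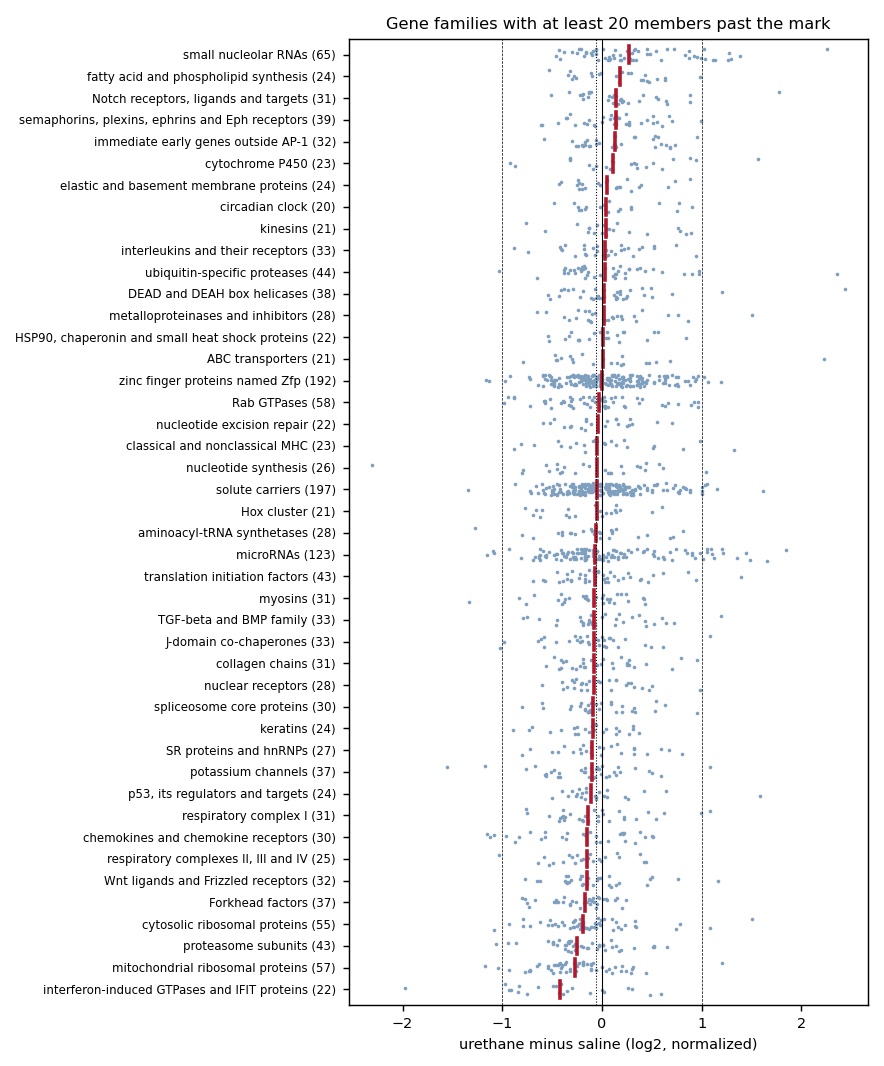
Difference (x axis, urethane minus saline, normalized log2) of each member past the mark (points) in the 44 families with at least 20 such members, with the median as a red bar; the dotted line is the median of all genes (-0.06) and dashed lines are 2-fold differences. Small nucleolar RNAs have the highest median (0.27) and interferon-induced GTPases and IFIT proteins the lowest (-0.42), and most medians lie close to the dotted line.

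The interferon-induced GTPases leaned lower on the urethane lung than on the saline lung. Guanylate-binding proteins and immunity-related GTPases are induced above all by interferon gamma and attack the membranes around intracellular pathogens, whereas IFIT, Mx and OAS proteins and related antiviral proteins are induced above all by type I interferon, several of them acting on viral RNA or capsids. Of 48 measured genes of these families 22 lay above the mark on a lung. Among the 22, 17 had a difference below 0 (77.3%, against 55.6% of all genes), and the median was -0.42. The medians under the other scalings were -0.37, -0.28 and -0.32. Among the 15 members with values of their own the median was -0.42 as well, and Gbp4 was the 1 member at least 2-fold lower, against 0.798% of all genes.

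Split by class, a split made after the data were seen, 8 guanylate-binding proteins lay past the mark. Of these 5 were above the mark on both lungs, and all 5 had a difference below 0 under every scaling, from -1.98 for Gbp4 to -0.43 for Gbp9. Gbp8 had a level of 7.03 on the saline lung against 6.10 on the urethane lung, Gbp7 one of 6.28 and 5.36, and Gbp10 one of 7.11 and 6.37. Their differences were -0.93, -0.92 and -0.75. The other 3 members, Gbp3, Gbp5 and Gbp11, lay below the mark on the urethane lung, which fixes their direction. Members of this family are close in sequence, so signal from another member cannot be told apart at their probe sets. Gbp4, Gbp7 and Gbp10 of the 5 had values of their own.

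All 4 immunity-related GTPases past the mark were lower on the urethane lung as well, with a median difference of -0.74. Igtp had levels of 4.88 and 3.91, a difference of -0.97, and Irgm2 had levels of 5.27 and 4.64, a difference of -0.64. Irgm1, a regulator of the other members, differed by -0.30. Iigp1 differed by -0.84, but its deposited value was the same on both lungs, so that its difference came from the scaling alone. The 7 genes past the mark among IFIT, Mx and OAS genes and related ones (Ifi27 and Ifih1) lay on both sides of 0, with a median of 0.02. Oas3, which makes the oligoadenylates that activate RNase L, had levels of 3.04 and 3.52, a difference of 0.48, and Ifit1, which binds viral RNA caps, had levels of 4.02 and 4.29, a difference of 0.26. Ifit3 differed by -0.49 and Oasl2 by -0.42. The difference between the classes was not tested.

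**Figure D4:**
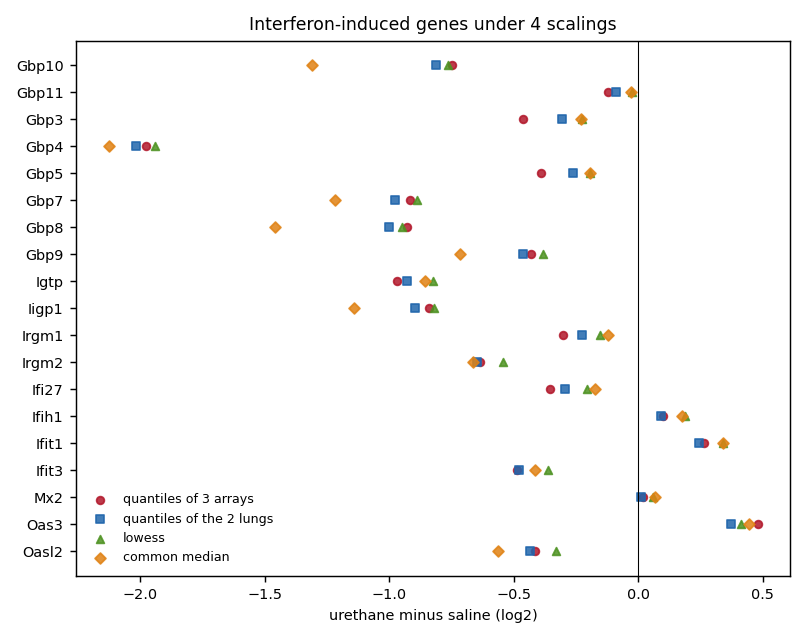
Difference (x axis, urethane minus saline, log2) of guanylate-binding proteins, immunity-related GTPases and IFIT, Mx, OAS and related genes past the mark (y axis) under 4 scalings, shown as 4 marker shapes. The GTPases lie left of 0 under all 4, from Gbp4 (-1.98) to Gbp11 near 0, the direction of Gbp3, Gbp5 and Gbp11 being fixed by the mark, while the last 7 genes lie on both sides of 0.

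The interferon-stimulated response element, a motif known from promoters of interferon-induced genes, was searched as GAAANNGAAA on both strands in the 250 bases before the gene start, in promoters of RefSeq genes (GRCm38.p6). Of the 13 family members past the mark whose promoter was listed there, 10 (76.9%) held it, against 936 of 27025 genes (3.46%). The gamma activated site, searched as TTCNNNGAA, was in 4 of the 13 (30.8%) and in 8.13% of all genes; both motifs were added after the data were seen. Holding the first did not follow the direction of the difference, since Ifit1, Oas3 and Ifi205, which had higher levels on the urethane lung, also held it. The promoters of Igtp (chr11:58199306-58199555, plus strand), Gbp7 (chr3:142530086-142530335, plus strand) and Ifit1 (chr19:34640639-34640888, plus strand) are shown for this contrast, with the matches in capitals on the strand of the gene.
Igtp: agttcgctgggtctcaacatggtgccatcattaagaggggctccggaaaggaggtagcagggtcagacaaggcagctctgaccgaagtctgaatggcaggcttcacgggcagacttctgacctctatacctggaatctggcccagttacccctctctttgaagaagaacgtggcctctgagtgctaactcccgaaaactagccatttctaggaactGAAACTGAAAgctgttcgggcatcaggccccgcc
Gbp7: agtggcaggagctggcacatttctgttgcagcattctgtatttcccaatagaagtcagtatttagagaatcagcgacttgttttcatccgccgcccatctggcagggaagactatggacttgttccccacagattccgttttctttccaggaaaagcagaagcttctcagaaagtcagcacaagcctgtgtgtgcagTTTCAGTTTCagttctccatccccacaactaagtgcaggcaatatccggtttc
Ifit1: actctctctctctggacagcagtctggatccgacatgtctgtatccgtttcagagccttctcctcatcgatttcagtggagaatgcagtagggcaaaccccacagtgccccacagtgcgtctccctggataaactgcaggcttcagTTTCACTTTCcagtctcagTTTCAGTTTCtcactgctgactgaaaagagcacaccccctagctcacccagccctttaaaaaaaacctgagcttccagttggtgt
Igtp held 1 match, starting 34 bases before the gene start, Gbp7 held 1 at 53 bases, and Ifit1 held 2, the first at 104 bases. A match is a string of letters and not a measured binding site.

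Among genes of antigen presentation and chemokines, proteasome subunits leaned lower on the urethane lung, and MHC genes and chemokines lay on both sides. Of 23 MHC genes past the mark 12 were below 0 (median difference -0.05, with a sign that turned after lowess and with a common median). H2-Aa, a class II chain, had levels of 5.42 and 4.54, a difference of -0.88, and its partner H2-Ab1 had levels of 6.05 and 5.37, a difference of -0.68. H2-Q4, a nonclassical class I gene with close relatives, had levels of 2.73 and 4.06, a difference of 1.33. H2-Q4 stood at a value shared by 10 or more probe sets on a lung. Of 43 proteasome subunits 30 were below 0 (69.8%, against 55.6% of all genes), with a median of -0.25. The lowest was Psmb8, a subunit of the immunoproteasome that interferon gamma induces, with levels of 5.36 and 4.29 and a difference of -1.06. Of 30 chemokines and chemokine receptors past the mark none was at least 2-fold higher, against 2.15% of all genes, and 3 were at least 2-fold lower, against 0.798%. Below 0 were 63.3% of the 30, against 55.6% of all genes. The 3 at least 2-fold lower were Pf4, the platelet chemokine (4.99 and 3.83, a difference of -1.15), Cxcl13, which draws B cells into follicles (5.25 and 4.12, a difference of -1.13), and Ccrl2, a chemerin-binding receptor (3.80 and 2.72, a difference of -1.08). The 6 Ly6 genes past the mark had a median of -0.60. Ly6c2 of monocytes had a difference of -1.05 or lower from its saline level of 3.48, with a value shared by 10 or more probe sets. Only 3 of the 6 lay above the mark on both lungs, 2 of them below 0 and 1 above it. The direction of the others was fixed by the mark.

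Cytokines and their receptors lay on both sides. Of 33 interleukins and receptors 18 were above 0 (median 0.03), led by Il1b, the inflammasome-processed cytokine, with levels of 3.80 and 4.75 and a difference of 0.95. In the TNF superfamily the 19 members had a median of -0.17. Tnfrsf1a, the TNF receptor found on most cells, went the other way (3.18 and 4.43, a difference of 1.25). Its urethane value was shared by 10 or more probe sets. The 13 Toll-like receptors and adaptors had a median of -0.07 and the 17 complement genes one of -0.04, and both signs turned after lowess and with a common median.

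Families of metabolizing enzymes and transporters went different ways, and whether each acts on urethane was not tested. Of 90 measured cytochrome P450 genes only 23 lay above the mark on a lung. Of these 15 were above 0 (65.2%, against 44.3% of all genes). Their median was 0.11, which became 0.00 over the 12 with values of their own. Cyp2e1, the main enzyme that activates urethane, lay below the mark on the saline lung and at a level of 2.76 on the urethane lung, a difference of at least 0.32. Cyp2b10, a phenobarbital-inducible P450 of a family of near-identical genes, lay below the mark on the saline lung and at 4.01 on the urethane lung, a difference of at least 1.56, at a urethane value shared by 240 probe sets. The vitamin-degrading enzymes Cyp26b1 (-0.92) and Cyp24a1 (-0.87) had the lowest differences of the family.

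Among the esterases, 5 of 18 carboxylesterases lay above the mark on a lung, and only 2 lay above it on both lungs. Of the 5, 4 had a difference above 0 (80%, against 44.3% of all genes), with a median of 0.30. Ces1d, an abundant lung carboxylesterase, had levels of 4.67 and 4.01, a difference of -0.66, and Ces1f lay below the mark on both lungs. All 3 alcohol dehydrogenases past the mark were lower, Adh5 by a difference of -0.75, Adh7 by -0.74 and Adh1 by -0.46. All 3 flavin monooxygenases past the mark were lower too. With 3 members each these counts are small, and 55.6% of all genes were below 0. The 15 aldehyde dehydrogenases had a median of -0.29, with Aldh3b2 the 1 member at least 2-fold lower. Of 16 glutathione S-transferases 11 were above 0 (median 0.13, but -0.11 with a common median), and Gstm4 had levels of 2.54 and 3.80, a difference of 1.26. None of 10 UDP glucuronosyltransferases lay above the mark on a lung. Among 21 ABC transporters, whose median was 0.01, Abca3 was the 1 member past 2-fold.

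DNA repair families had medians close to that of all genes, apart from single members. The 16 genes of base excision repair and direct reversal had a median difference of -0.03, a sign that turned after lowess and with a common median. Parg, which removes the poly(ADP-ribose) chains laid at strand breaks, had levels of 2.80 and 4.08, a difference of 1.28, and Parp1, which lays them, had levels of 3.73 and 4.22, a difference of 0.48. Mgmt, the methyltransferase that repairs alkylated guanine, differed by -0.31 and the gap-filling polymerase Polb by -0.44. The 22 genes of nucleotide excision repair had a median of -0.04, which turned after lowess, from Ccnh (-0.59 or lower) to Rpa3 (0.71). In double-strand break and crosslink repair the 15 genes had a median of 0.02, and Rad50, of the MRN complex, lay below the mark on the saline lung and at 3.73 on the urethane lung, a difference of at least 1.29. Fance, of the Fanconi core complex, had levels of 2.51 and 3.57, a difference of 1.06. The 6 genes of translesion synthesis past the mark had a median of 0.19, and none of 6 mismatch repair genes lay above the mark.

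In the p53 list 8 of 24 genes were above 0 (33.3%, against 44.3% of all genes), with a median of -0.11. Ddit4, an inhibitor of mTORC1 that p53, hypoxia and glucocorticoids induce, had levels of 3.26 and 4.84, a difference of 1.58, and was the 1 member past 2-fold. Cdkn1a, the p21 inhibitor of cyclin-dependent kinases, had levels of 7.06 and 7.32, a difference of 0.26 that became -0.35 with a common median. Mdm2, the p53 ubiquitin ligase, differed by -0.06, with a sign that turned after lowess and with a common median, and the nuclease gene Aen by -0.50. Of 19 genes of Ras, Raf and MAP kinases 13 were below 0 (68.4%, against 55.6% of all genes), with a median of -0.23. Nras had levels of 6.39 and 5.90, a difference of -0.49, and the adaptor Shc1 differed by -0.64. Only 15 of 23 measured cell division genes lay above the mark, with a median of -0.28. Aurkb, the kinase of the chromosomal passenger complex, had levels of 3.90 and 2.89, a difference of -1.01, and Mki67, the proliferation antigen, differed by -0.55. Values of their own were held by 5 of those 15 genes, and Aurkb was not among them.

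Both families of ribosomal proteins leaned lower on the urethane lung than on the saline lung, with single members the other way. Of 57 mitochondrial ribosomal proteins past the mark 13 were above 0, or 22.8% against 44.3% of all genes, and the median difference was -0.27. The 33 with values of their own had a median of -0.37. Mrps12 had levels of 3.75 and 2.58, a difference of -1.17, while Mrps23 had levels of 2.96 and 4.16, a difference of 1.20. Of 55 cytosolic ribosomal proteins 14 were above 0, with a median of -0.19 that reached -0.45 with a common median. Rps16 had levels of 2.77 and 4.27, a difference of 1.51, and Rps13 had levels of 4.38 and 5.47, a difference of 1.09. Rps27, by contrast, had a saline level of 3.51 and lay below the mark on the urethane lung, a difference of -1.08 or lower. Ribosomal protein genes have many processed copies in the genome, so their values are uncertain.

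RNA helicases had a median close to that of all genes, with single members past 2-fold. Of 38 DEAD and DEAH box helicases 22 were above 0 (57.9%, against 44.3% of all genes), with a median of 0.02. Only Ddx5 and Ddx47, a nucleolar helicase of ribosomal RNA processing, were at least 2-fold higher (5.26%, against 2.15% of all genes). Ddx47 lay below the mark on the saline lung and at 3.65 on the urethane lung, a difference of at least 1.21. Ddx3x, a helicase of translation initiation, had levels of 5.98 and 5.46, a difference of -0.52. The 43 translation initiation factors had a median of -0.07, a sign that turned after lowess, and Eif5a2, a paralogue of the elongation factor eIF5A, had levels of 2.65 and 4.04, a difference of 1.39. Of 28 aminoacyl-tRNA synthetases only Wars was past 2-fold, and the family median of -0.06 turned after lowess and with a common median. The 27 SR proteins and hnRNPs had a median of -0.10 that turned after lowess.

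Small nucleolar RNAs stood higher on the urethane lung under 3 of the 4 scalings. Small nucleolar RNAs guide the modification of ribosomal RNA, and the list also held Cajal body RNAs, which guide that of spliceosomal RNA. Of its 65 members past the mark 47 were above 0 (72.3%, against 44.3% of all genes). At least 2-fold higher were 9 (13.8%, against 2.15% of all genes). The median difference was 0.27, but it became -0.30 with a common median, so the direction of this family depends on the scaling. Snord11 lay below the mark on the saline lung and at a level of 4.70 on the urethane lung, a difference of at least 2.25. Snora30 had levels of 7.07 and 8.46, a difference of 1.39 that was 0.93 with a common median. Snord73b had levels of 9.18 and 10.47, a difference of 1.29 that was 0.76 with a common median. Under every scaling 2 of the 65 were at least 2-fold higher, against 1.04% of all genes.

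MicroRNA loci had a median like that of other genes and a wider spread. Of 478 measured loci 123 lay above the mark, with a median difference of -0.07, a sign that turned after lowess. At least 2-fold higher were 13 (10.6%, against 2.15% of all genes) and at least 2-fold lower were 3 (2.44%, against 0.798%). Under every scaling 8 loci were at least 2-fold higher, against 1.04% of all genes. These were Mir5123 (2.90 and 4.75, a difference of 1.85), Mir574 (2.71 and 4.37, 1.65), Mir5125 (5.41 and 6.90, 1.49), Mirlet7b (3.09 and 4.54, 1.45), Mir677 (at least 1.36, below the mark on the saline lung), Mir1954 (1.22), Mir335 (1.20) and Mir1981 (1.12). Mir5123, Mir5125, Mirlet7b and Mir1981 stood at shared values on at least 1 lung. The lower loci were Mir194-1 (-1.16), Mir666 (-1.09) and Mir1943 (-1.08), each with a value shared by 10 or more probe sets on a lung. The sources used here do not say whether these probe sets read the hairpin, the host transcript or the mature molecule, so the differences are those of loci and not of mature microRNAs. The mature sequences, from the RefSeq-based table (GRCm38.p6), are shown with the seed, bases 2 to 8 from the 5′ end, in capitals, because the seed decides which messages a microRNA pairs with. Mature sequences were matched for 106 of the 123 loci.
mmu-miR-5123: uGUAGAUCcauaugccauggugug
mmu-miR-574-5p: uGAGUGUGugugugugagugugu
mmu-miR-5125: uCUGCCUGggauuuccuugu
mmu-let-7b-5p: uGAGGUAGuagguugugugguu
mmu-miR-677-5p: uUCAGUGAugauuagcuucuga
mmu-miR-1954: aCUGCAGAgugagacccuguu
mmu-miR-335-5p: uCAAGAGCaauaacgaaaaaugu
mmu-miR-1981-5p: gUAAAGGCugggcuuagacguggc
No seed was shared between the 8 loci, counting both arms where the table holds them, so the higher loci did not form a seed family. The let-7 family, to which Mirlet7b belongs, is known to pair with Ras messages.

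Heat shock chaperones split by member. The 12 HSP70 and HSP110 genes past the mark had a median difference of -0.14. Hsph1 and Hspa1b were at least 2-fold higher (16.7%, against 2.15% of all genes), and only 1 of these had values of its own. Hsph1, an HSP110 that exchanges the nucleotide of HSP70, had levels of 3.09 and 4.26, a difference of 1.17. Hspa1b, the stress-inducible HSP70, lay below the mark on the saline lung and at 3.58 on the urethane lung, a difference of at least 1.14, whereas its near-identical neighbour Hspa1a lay below the mark on both lungs. Hspa8, the constitutive HSP70, had levels of 6.32 and 5.74, a difference of -0.58, and Hspa5, the chaperone of the endoplasmic reticulum, had levels of 3.63 and 3.02, a difference of -0.61. Among 33 J-domain co-chaperones Dnajc2, a ribosome-bound chaperone, was higher (2.80 and 3.88, a difference of 1.08) and Dnajb1, the heat-induced partner of HSP70, lower (4.11 and 3.09, a difference of -1.02), with a median of -0.08 that turned after lowess. The 22 HSP90, chaperonin and small heat shock genes had a median of 0.01, which became -0.02 with the quantiles of the 2 lungs and -0.05 with a common median.

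The heat shock element, where HSF1 binds, was searched as facing units, GAANNTTC or TTCNNGAA, on both strands in the same 250 bases. It was held by 2 of 9 HSP70 and HSP110 genes with a promoter (22.2%), by 6 of 19 of the HSP90, chaperonin and small heat shock genes (31.6%), by 5 of 27 J-domain genes (18.5%), and by 3932 of 27025 genes (14.5%). The 2 that held it in the first family were Hspa1b and Hsph1, the members past 2-fold, but the other families held it in genes that were lower, such as Dnajb6 (a difference of -0.61), Hspe1 (-0.54), Dnaja4 (-0.46) and Dnajb4 (-0.28). Their promoters follow, for Hspa1b at chr17:34959239-34959488 and for Hsph1 at chr5:149636316-149636565 (GRCm38.p6, minus strand, RefSeq), with the match in capitals.
Hspa1b: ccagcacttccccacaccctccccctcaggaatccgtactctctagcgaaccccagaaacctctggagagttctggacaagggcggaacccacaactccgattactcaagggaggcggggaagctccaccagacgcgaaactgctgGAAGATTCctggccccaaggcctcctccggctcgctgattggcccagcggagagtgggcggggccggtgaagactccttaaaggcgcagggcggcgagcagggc
Hsph1: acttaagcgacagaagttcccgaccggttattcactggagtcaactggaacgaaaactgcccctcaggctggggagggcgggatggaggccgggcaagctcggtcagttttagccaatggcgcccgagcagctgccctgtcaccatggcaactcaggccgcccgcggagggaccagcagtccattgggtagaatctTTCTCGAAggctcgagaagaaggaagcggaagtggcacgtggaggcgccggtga
The match started 104 bases before the gene start in Hspa1b and 54 bases before it in Hsph1. The element of 3 facing units was in 0 of these 9 promoters, in 1 of the 27, in 2 of the 19 and in 139 of 27025 genes.

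Transcription factors of the early response and of the clock differed little. Of 32 immediate early genes outside AP-1, 18 were above 0, with a median of 0.13, led by Egr1, the zinc finger factor induced by growth signals, with levels of 2.67 and 3.62 and a difference of 0.95. Zfp36, which destabilizes cytokine messages, had levels of 5.36 and 6.09, a difference of 0.73. The 19 AP-1 factors had a median of -0.06 that turned after lowess and with a common median, with Jund at 0.56 and Junb at -0.51. Of 20 clock genes 12 were above 0 (median 0.04), with levels of 5.19 and 5.96 for Per1, a repressor of the clock loop, and of 5.15 and 5.90 for Dbp, a clock-driven factor. The sources used here do not give the hour of collection. Forkhead factors leaned the other way: 7 of 37 were above 0, or 18.9% against 44.3% of all genes, with a median of -0.17. They ran from Foxd3 (-0.80) and Foxf2, a mesenchymal factor (5.04 and 4.26, a difference of -0.78), to Foxl1 (at least 0.24). The 192 genes named as zinc finger proteins were even, with 96 above 0 and 96 below.

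Glycolysis and respiratory complexes II, III and IV leaned lower on the urethane lung than on the saline lung, and lipid synthesis leaned higher. Glycolysis had 12 of 17 genes below 0 (70.6%, against 55.6% of all genes) and a median of -0.27. Ldha, which makes lactate, had levels of 4.10 and 3.14, a difference of -0.96. Complex I had 19 of 31 below 0 (median -0.14, but -0.04 over the 21 with values of their own, near the median of all genes), and Ndufv1, its NADH-binding subunit, had levels of 4.77 and 5.85, a difference of 1.08. Complexes II, III and IV had 19 of 25 below 0 (median -0.15), with Uqcrq of complex III at 4.40 and 3.38, a difference of -1.03. In nucleotide synthesis, 13 of 26 genes were above 0, and its members past 2-fold went opposite ways: Prps1, which makes the sugar phosphate used in purine synthesis and salvage, was lower, and Hprt, the purine salvage enzyme that uses it, had levels of 4.44 and 5.48, a difference of 1.04. Fatty acid and phospholipid synthesis, which feeds surfactant, had 14 of 24 above 0 and a median of 0.18, which became 0.03 with a common median. Lpcat1 of surfactant lecithin synthesis had levels of 5.38 and 6.02, a difference of 0.64. The 197 solute carriers had a median of -0.05, which turned after lowess and with a common median; Slc35e3 was highest (2.92 and 4.53, a difference of 1.61) and the urea transporter Slc14a1 lowest (a difference of -1.35 or lower from a level of 3.77).

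Integrin and laminin chains leaned higher on the urethane lung, and cadherins, claudins and connexins leaned lower. Of 18 integrin chains past the mark 13 were above 0 (72.2%, against 44.3% of all genes). The median difference was 0.28, or 0.38 over the 9 with values of their own. Itgb1, the beta chain shared by most matrix receptors, had levels of 4.70 and 5.77, a difference of 1.07. Its saline value was shared by 10 or more probe sets. Itgb5, a vitronectin receptor chain, had levels of 3.06 and 4.12, a difference of 1.05. The 9 laminin chains, ligands of several integrins in basement membranes, had a median of 0.31, from Lamc3 (-0.84) to Lamb1 (0.82). Only 3 of the 9 had values of their own. Of 16 cadherins and protocadherins 3 were above 0 (18.8%), with a median of -0.24. Cdh1, the E-cadherin of epithelia, went the other way (3.40 and 3.90, a difference of 0.50). Of 18 claudins and connexins 4 were above 0 (22.2%), with a median of -0.16 and Cldn11 at 4.18 and 3.21, a difference of -0.97. Other matrix genes did not lean with the integrins. The 31 collagen chains had a median of -0.08, with Col4a2 of basement membranes at 0.95 and Col1a1 of fibrillar collagen at 0.71. The 24 elastic and basement membrane proteins past the mark had a median of 0.05. Of 28 metalloproteinases and inhibitors, whose median was 0.02, Adamts10, which acts on microfibrils, had levels of 2.60 and 4.10, a difference of 1.51. Adamts10 stood at a value shared by 10 or more probe sets on a lung.

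Signalling families of development differed by small amounts. Of 31 Notch receptors, ligands and targets 21 were above 0 (67.7%, against 44.3% of all genes), with a median of 0.14. Notch2, a receptor used in secretory cell fate in airways, lay below the mark on the saline lung and at 4.22 on the urethane lung, a difference of at least 1.78, at values shared by 159 and 173 probe sets. Lfng, which glycosylates Notch receptors, had levels of 4.43 and 5.31, a difference of 0.88. Of 39 semaphorins, plexins, ephrins and Eph receptors 26 were above 0 (66.7%), with a median of 0.14 and Nrp2, a semaphorin and VEGF coreceptor, at 2.83 and 3.82, a difference of 0.99. In the VEGF and angiopoietin family 9 of 11 were above 0 (81.8%, against 44.3% of all genes), with a median of 0.13. Vegfa, which alveolar type I cells make, had levels of 6.82 and 7.88, a difference of 1.05 that was 0.51 with a common median. Of 32 Wnt ligands and Frizzled receptors 22 were below 0 (68.8%, against 55.6% of all genes), with a median of -0.15. The coreceptor Lrp5 went the other way (3.24 and 4.40, a difference of 1.17). The 33 TGF-beta and BMP genes had a median of -0.08 that turned after lowess and with a common median, with Tgfb3 at 6.46 and 5.70, a difference of -0.76.

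Markers of the lung's cell types were at levels that fit the tissue label on both arrays, with all 15 alveolar type II, 14 alveolar type I, 11 club and 18 endothelial markers above the mark. Sftpc, the surfactant protein of alveolar type II cells, had levels of 11.04 and 11.29, Scgb1a1 of club cells 11.85 and 11.88, and Ager of alveolar type I cells 8.10 and 8.25. Their differences of 0.25, 0.03 and 0.15 became -0.68, -0.93 and -0.62 with a common median. Of the alveolar type II markers 12 were above 0 (80%, against 44.3% of all genes), with a median difference of 0.31, which became -0.26 with a common median. The medians were 0.00 for alveolar type I cells and 0.03 for club cells, which became -0.59 and -0.55 with a common median. They were -0.01 for ciliated cells, with a sign that turned after lowess and with a common median, and -0.09 for endothelial cells, which became -0.49 with a common median. Muc5b, a mucin of club and goblet cells, had levels of 2.71 and 3.93, a difference of 1.22, and Muc4, a membrane mucin, had levels of 2.64 and 3.87, a difference of 1.23. Of 10 axonemal dyneins 9 were above 0 (90%), with a median of 0.30, or 5 of the 6 that were above the mark on both lungs.

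The cardiac list, whose genes are used by muscle sleeves around pulmonary veins and by the heart, had 10 of 14 members above the mark on a lung. Of these 9 were above it on both lungs, and all 9 were lower on the urethane lung, whereas the direction of Myl3, below the mark on the urethane lung, was fixed by the mark. The median difference was -0.77 over the 9 and -0.67 over the 10, and over the 10 it was -0.60, -0.50 and -0.59 under the other scalings. Myl7 had levels of 4.92 and 3.58, Nppa, the atrial natriuretic peptide, 4.28 and 3.27, and Actc1, cardiac actin, 4.85 and 3.92. Their differences were -1.34, -1.01 and -0.94. The 6 skeletal muscle genes past the mark had a median of -0.40, and the 10 smooth muscle genes one of -0.11. The sources used here do not say how the lungs were dissected, and the amount of venous or heart muscle in each sample was not measured.

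Leukocyte lists were sparse. Of 13 neutrophil genes 6 lay above the mark, and they went both ways. Csf3r, the G-CSF receptor, had levels of 3.49 and 4.26, a difference of 0.78. Retnlg, a resistin-like granulocyte gene, had a difference of -1.11. Only 1 of the 6 had values of its own, and it was not Retnlg. Of 8 monocyte and interstitial macrophage genes 7 were below 0 (87.5%, against 55.6% of all genes), with a median of -0.28. The 7 T cell genes had a median of -0.16, with Lat, the adaptor of the T cell receptor, at 2.66 and 4.01, a difference of 1.35, the urethane value being shared by 240 probe sets. Ptprc, the pan-leukocyte antigen CD45, had levels of 3.06 and 3.35, a difference of 0.29. Both measured erythroid genes lay below the mark. The interferon-induced GTPases and chemokines above are used by leukocytes among other cells, and the part of these cells in their differences was not tested. Genes used widely as references were not fixed points either, with Hprt at 1.04, Gapdh at -0.52 and Actb at -0.23 (-1.18 with a common median), and a median of -0.14 over 12.

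**Figure D5:**
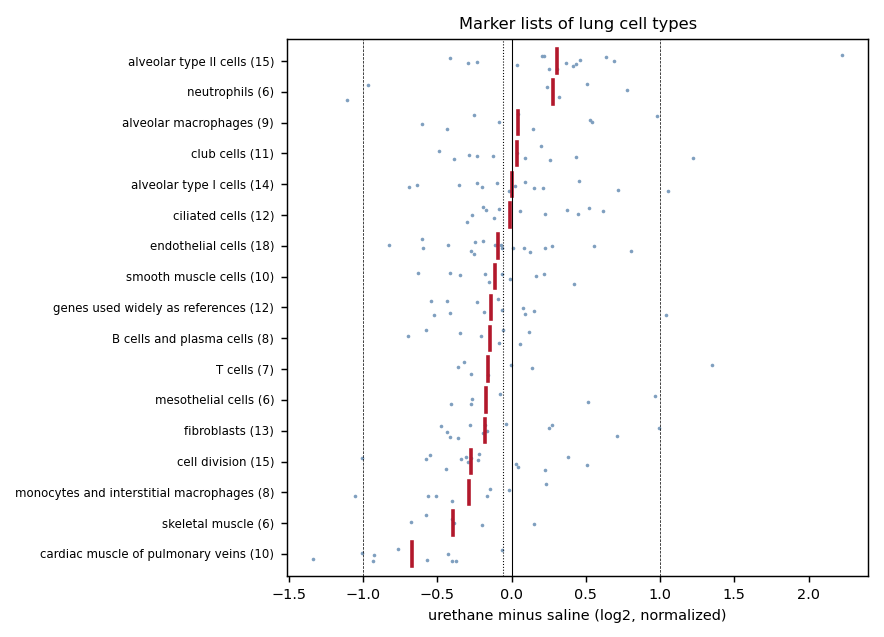
Difference (x axis, urethane minus saline, normalized log2) of each marker past the mark (points) in 17 lists with at least 5 such members, with the median as a red bar; the dotted line is the median of all genes (-0.06). Alveolar type II markers have the highest median (0.31) and the cardiac list the lowest (-0.67), with none of its points right of 0.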

How the data were processed

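RNA was labelled with biotin for whole-transcript arrays, per the labels' protocols. In the deposited table each array has log2 values, 1 for a probe set. The submitters' processing notes name RMA (background correction, quantile normalization and probe summary), and the series' design text names GeneSpring GX 12.5. The sources used here do not give the arrays normalized together or the build of the probe sets. Of 41345 probe sets 23521 carried 1 gene symbol, 1814 several and 16010 none; 23328 were matched by Entrez identifier to RefSeq genes of GRCm38.p6. There were 0 columns of other samples.

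Using Python 3.11.15, numpy 2.4.6, pandas 2.3.3 and statsmodels 0.14.6, all probe sets were quantile-normalized to the mean of the 3 sorted columns, ties taking their mean, and probe sets of 1 gene were averaged. The other scalings were the quantiles of the 2 lungs, lowess (span 0.3) and a common median. The threshold was 2-fold, a difference of 1 on the log2 scale. Medians were taken for families with at least 5 members past the mark. Scripts were tested on simulated data. Named genes were the 15 highest and 15 lowest by the difference nearest to 0 over the 4 scalings (without unnamed transcripts, small RNAs, chemosensory and antigen receptors), up to 3 at each end of a family, and a fixed set of markers; some were left out for room. The other GTPase members, Neat1, Hspa1a, J-domain and chaperonin genes holding a heat shock element and the microRNA loci past 2-fold under every scaling were added after their values were seen. Members, families and lists were chosen with earlier results of these data known. The number of arrays limits the precision.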

Additional observations from a re-analysis of the deposited data

How the results depend on the processing

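The counts of genes past 2-fold, 261 higher and 97 lower, moved with the processing. They were 148 and 45 with the quantiles of the 2 lungs, 204 and 30 after lowess, 170 and 199 with a common median, and 8106 and 0 with the values as deposited, which are not on one scale. A 1.5-fold threshold gave 996 and 899, and a 4-fold threshold 7 and 1. Without a floor they were 490 and 217, with a floor at the 99th percentile of the olfactory receptors 110 and 41, and with values below the floor not held at it 404 and 158. Leaving out genes at a value shared by 10 or more probe sets, an alternative chosen after seeing the data, left 166 and 51 of 6877 genes, or 2.41% and 0.742%. Taking the highest probe set gave 283 and 102, genes with 1 probe set 256 and 96, and vomeronasal receptors as background 274 and 100. The genes past 2-fold under every scaling, 126 higher and 30 lower, numbered 67 and 25 with the stricter floor and 650 and 328 at 1.5-fold. Of 603 named genes above the mark 38 changed sign under another scaling, and 0 of the 96 past 2-fold did. The leading genes were chosen for the same sign under every scaling, so this 0 was partly fixed in advance. Family medians changed sign in 1 case with the quantiles of the 2 lungs, 20 after lowess and 17 with a common median. No paired analysis was possible because each group is 1 array. Signal near background, shared values and the single probe set behind most genes limit the sizes given.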

Other observations

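The lists in this part were drawn up after the leading genes had been seen, so their counts describe those genes and support nothing. Platelet and megakaryocyte genes leaned lower on the urethane lung. Of 19 measured 16 lay above the mark, and 11 of them had a difference below 0, against 55.6% of all genes. The median was -0.51, with -0.46, -0.36 and -0.53 under the other scalings. At least 2-fold lower were 4, against 0.798% of all genes: besides Pf4, Rgs18, a regulator of G protein signalling in platelets (levels of 4.43 and 3.21), P2ry12, the platelet ADP receptor (3.71 and 2.50), and Thbs1, the thrombospondin of platelet granules and matrix (5.05 and 3.96). Of these 4 only Pf4 was past 2-fold under every scaling. The difference nearest to 0 was -0.98 for Rgs18, -0.80 for P2ry12 and -0.95 for Thbs1. The urethane value of Rgs18 was shared by 412 probe sets. Ppbp, a platelet granule chemokine, had levels of 9.35 and 8.78, a difference of -0.58. Gp9 differed by -0.95, but its deposited value was the same on both lungs. Alox12 (0.34), the integrin chain Itgb3 (0.28) and Vwf (0.22), which endothelium also makes, lay above 0. So did Gp6 (at least 0.19) and Selp (at least 0.04), whose direction was fixed by a saline level below the mark. Only 8 of the 16 had values of their own, of which 5 were below 0 (median -0.38). Lung platelets and megakaryocytes were not counted, and blood left in each lung was not measured.

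Outside the GTPase family, genes that interferon gamma is known to induce leaned lower as well: 14 of 19 past the mark, against 55.6% of all genes. Their median was -0.35, and -0.36, -0.31 and -0.31 under the other scalings. Wars and Psmb8, 2 of the 19, were at least 2-fold lower, against 0.798% of all genes. Cxcl10, a chemokine that draws T cells, had levels of 3.41 and 2.55, a difference of -0.87, and Irf1, a transcription factor of this response, 5.38 and 4.80, a difference of -0.58. Icam1, an adhesion molecule that interferon gamma and TNF induce, went the other way (5.17 and 6.10, a difference of 0.93), as did the peptide transporter Tap2 (4.26 and 4.77, a difference of 0.51). Of the 14 with values of their own 12 were below 0 (median -0.44).

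The 3 metallothioneins past the mark were lower, Mt2 by a difference of -1.19, Mt1 by -0.21 and Mt3 by -0.73 or lower. Metallothioneins are induced by zinc and by glucocorticoids.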
